A study of Homo sapiens with 6 samples.

Results

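The genes described here are 44 genes of heart contraction and calcium handling, taken by symbol from a count table of 52088 genes. They fall into 7 roles, from the myosin motor and actin track to the calcium channels and the adrenergic enzymes that tune the beat. The list was not chosen on a threshold of these data, but the heart-related pathways it draws on were picked by the study from PAX6_Ta KO libraries of K562 cells, so the direction in PAX6_Ta KO is not independent evidence. The knockout of a second element, PBX3_Cl KO, and the direct contrast of both knockouts are given first. Neither is independent evidence, since the genes were chosen with earlier results of these data known. The direct contrast also holds the same PAX6_Ta KO libraries, and PBX3_Cl KO is compared with the same Control libraries.

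The study measured total RNA by RNA sequencing in K562, a human erythroleukaemia line. Control carried the genotype WT, PAX6_Ta KO lacked the ultra-conserved element PAX6_Tarzan, and PBX3_Cl KO lacked the ultra-conserved element PBX3_Claudia. Both deletions were made by Cas9 with a pair of guide RNAs on 1 plasmid, followed by puromycin selection and picking of single clones, and each group had 2 libraries. Nothing in the labels says that Control passed through the same transfection, selection and cloning, so the loss of an element cannot be told apart from the clone that carried it. Nor do the labels say that the 2 libraries of a group came from separate cultures, and p-values then measure only the spread between these libraries. Total counts ranged from 45912044 to 60908470 per library, of which the 44 genes together took between 0.0708% and 0.0936%.

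In heart muscle, an action potential opens voltage-gated calcium channels, and the calcium that enters triggers ryanodine receptors to release much more from the sarcoplasmic reticulum. The calcium binds troponin on the thin filament, which lets myosin heads pull on actin, and the SERCA pump then returns it to the store. Adrenergic receptors raise cyclic AMP through adenylyl cyclases and strengthen each step. Many of these proteins have relatives that work in all cells, and blood cells use some of them too.

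The 44 genes spanned the range from absent to abundant. As RPKM (counts scaled to exon length and library size), 9 genes averaged above 1 in Control, 7 lay between 0.1 and 1, and 28 lay at or below 0.1. In PAX6_Ta KO the numbers were 9, 16 and 19, and in PBX3_Cl KO they were 10, 12 and 22. ATP2A2, the widely expressed SERCA pump, alone took between 54.1% and 57.8% of the counts of the 44 genes in each library. At the other end, MYL2, the regulatory light chain of ventricular myosin, had 0 counts in all 6 libraries. For comparisons between groups, 32 of the 44 genes passed the filter on low counts and entered a fit with 20746 genes, and 12 did not. A gene low in Control passed that filter only through the knockout in which it was counted, so the numbers of calls below are descriptions of the list and not evidence for it.

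**Figure D1:**
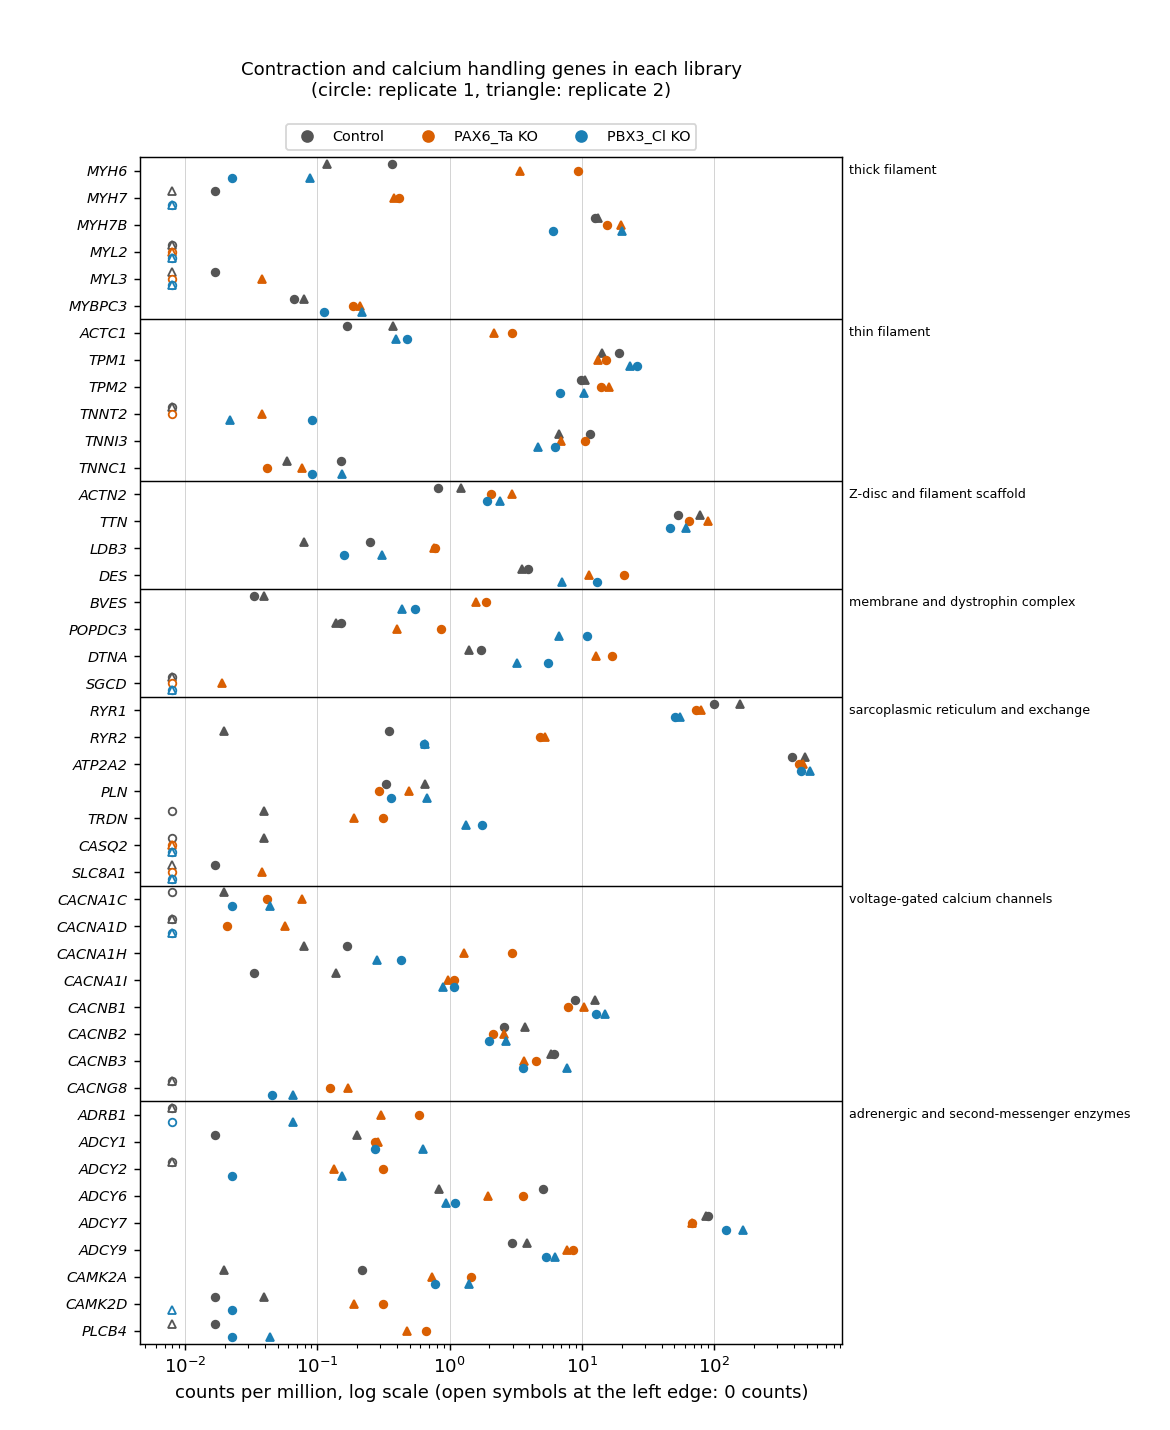
CPM (counts scaled to library size, log scale) of the 44 genes in each library, ordered by role, with grey for Control, orange for PAX6_Ta KO and blue for PBX3_Cl KO, circles for replicate 1 and triangles for replicate 2. Open symbols at the left edge are libraries with 0 counts. ATP2A2, RYR1, ADCY7 and TTN sit at the right in every group, while MYH6, BVES, POPDC3, TRDN and RYR2 sit far apart between groups.

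In PBX3_Cl KO against Control, 8 of the 32 tested genes were called higher, beside 6.28% of all tested genes, and 1 was called lower, beside 2.69% (edgeR quasi-likelihood test, adjusted p below 0.05 over 20746 genes). The higher genes were POPDC3, TRDN, BVES, CACNA1I, CAMK2A, DTNA, DES and ADCY7, and the lower gene was RYR1. The median log2 fold change of the 32 genes was 0.70, and that of all tested genes was -0.01. Between the knockouts, 9 genes were called higher in PAX6_Ta KO, beside 5.26% of all tested genes, and 4 were called lower there, beside 6.71%. The 9 were MYH6, MYH7, PLCB4, ADRB1, RYR2, CACNA1H, ACTC1, BVES and DTNA, and the 4 were POPDC3, TRDN, ADCY7 and TPM1. The median was 0.51 over the 32 genes and -0.01 over all. In PAX6_Ta KO against Control, 17 genes were called higher, beside 7.21% of all tested genes, and 0 lower, beside 4.21%. At an unadjusted p below 0.05 the same edgeR test gave 18 higher and 1 lower, DESeq2 gave 17 and 0 at an adjusted p below 0.05, and the median was 1.42 against -0.02 over all genes. The comparisons with Control share the same 2 Control libraries, and their values are given side by side for each gene and not compared with each other.

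**Figure D2:**
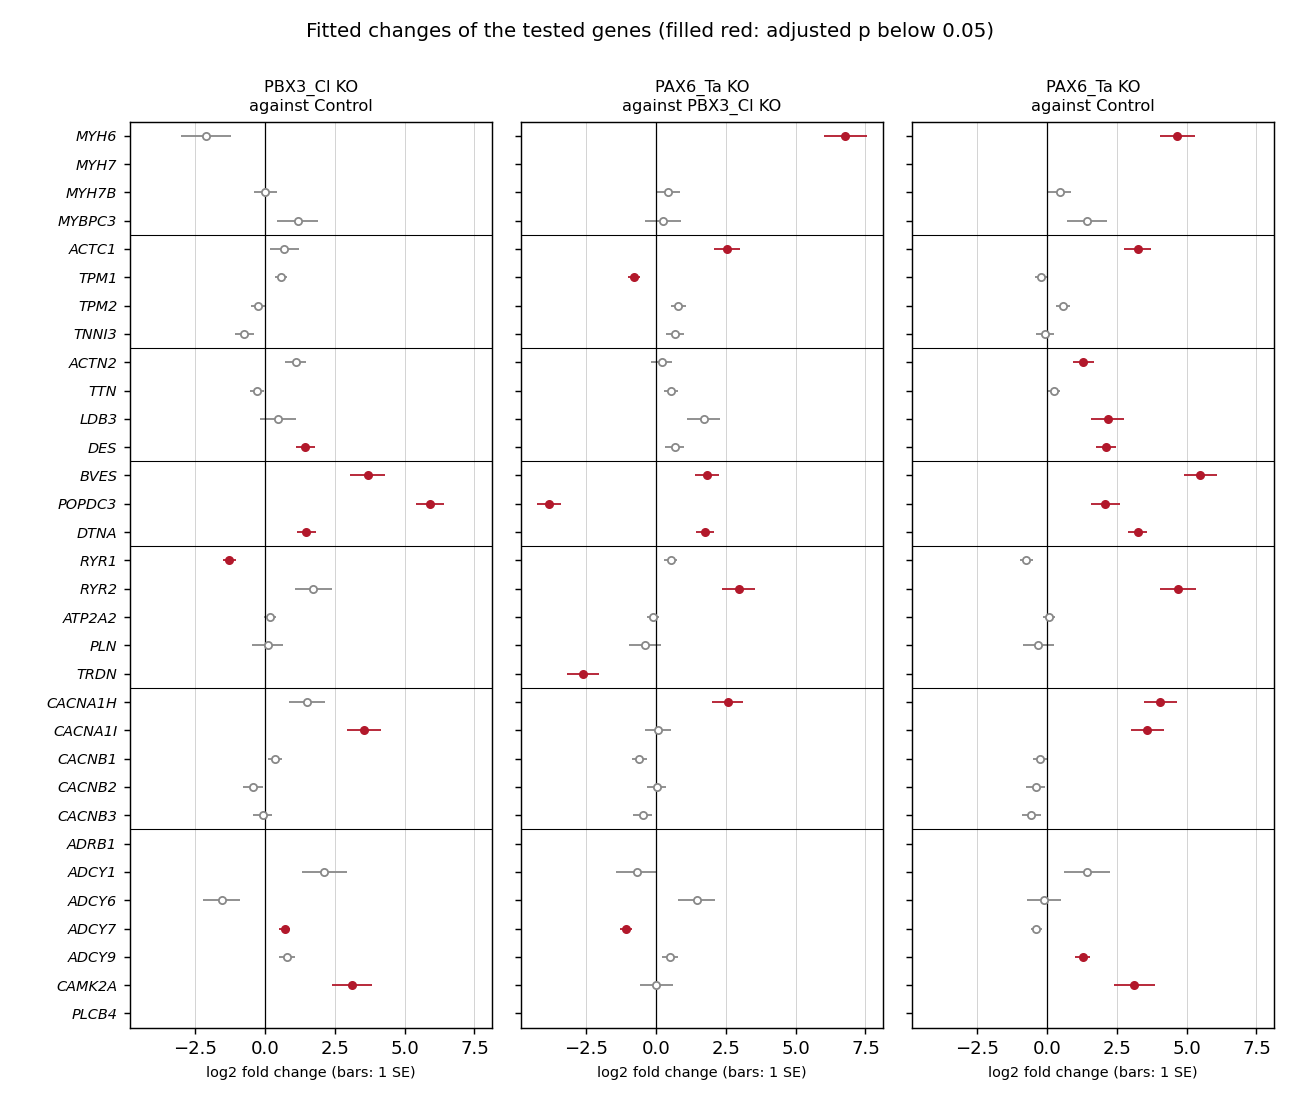
Fitted log2 fold change of the tested genes in the 3 comparisons, with bars of 1 SE. Filled red points have an adjusted p below 0.05, and fits with a group of 3 counts or fewer (MYH7, ADRB1, PLCB4 and, against Control, TRDN) are not drawn. POPDC3 and TRDN lie left of 0 in the direct contrast, and MYH6 lies far to the right.

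Of the thick filament genes, the 2 cardiac myosin heavy chains were counted almost only in PAX6_Ta KO. MYH6, the fast alpha myosin heavy chain of the atria, had 22 and 6 counts in Control, 447 and 178 in PAX6_Ta KO, and 1 and 4 in PBX3_Cl KO. The PAX6_Ta KO libraries were above all others and did not overlap them. In log2 units PAX6_Ta KO lay above PBX3_Cl KO by 6.77 ± 0.77 (SE) (edgeR adjusted p = 9.75e-05) and above Control by 4.66 ± 0.63 (adjusted p = 3.57e-04). PBX3_Cl KO lay below both Control libraries, at -2.11 ± 0.90 with an edgeR adjusted p of 0.21. With no low-count filter it was -2.13 ± 0.67 and passed the threshold (adjusted p = 0.0234). Without the second Control library the log2 fold change was -2.67.

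MYH7, the slow beta myosin heavy chain of the ventricle, had 1 and 0 counts in Control, 20 and 20 in PAX6_Ta KO, and 0 and 0 in PBX3_Cl KO. Both PAX6_Ta KO libraries stood above the rest. Against PBX3_Cl KO its level in PAX6_Ta KO was at least 11.9-fold higher, taking a floor of 3 counts over the group, with an edgeR adjusted p of 0.00379. Against Control the ratio was 43.9, with an exact 95% interval from counting error alone of 7.44 to 1780. The sequences of MYH6 and MYH7 are close, and the sources used here do not give how reads shared by near-identical genes were counted.

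MYH7B, a further myosin heavy chain of this branch, was the main one in K562. It had 751 and 674 counts in Control, 751 and 1035 in PAX6_Ta KO, and 266 and 918 in PBX3_Cl KO. The PBX3_Cl KO libraries lay below and above those of both other groups, and MYH7B was not called in any comparison. Without the second PBX3_Cl KO library it was called lower there than in Control (-1.09, edgeR adjusted p = 0.0229). Per length, MYH6 made up 3.21% and 0.998% of the summed RPKM of these myosins in Control, 39.4% and 15.9% in PAX6_Ta KO, and 0.424% and 0.491% in PBX3_Cl KO. Of the other thick filament genes, MYL3, the essential light chain, had between 0 and 2 counts per library, and MYBPC3, cardiac myosin binding protein C, had between 4 and 11 and was not called in any comparison.

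Of the thin filament genes, ACTC1 and TPM1 were called. ACTC1, cardiac alpha actin, had 10 and 19 counts in Control, 142 and 113 in PAX6_Ta KO, and 21 and 18 in PBX3_Cl KO. The PAX6_Ta KO libraries were the highest. The counts of Control and PBX3_Cl KO overlapped, but scaled to library size both PBX3_Cl KO libraries (0.476 and 0.393 CPM) were above both Control libraries (0.167 and 0.376). The log2 fold change was 2.55 ± 0.47 (SE) in PAX6_Ta KO against PBX3_Cl KO (edgeR adjusted p = 0.00347), 3.24 ± 0.49 against Control (adjusted p = 8.30e-04) and 0.69 ± 0.52 in PBX3_Cl KO against Control (adjusted p = 0.551).

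A RefSeq promoter each of MYH6 and ACTC1 (GRCh38.p14, 250 bases before to 50 after the start, on the minus strand of both) is shown because both genes were higher in PAX6_Ta KO than in either other group. RefSeq lists more ACTC1 promoters, at chr15:34794859-34795158 and chr15:34794068-34794367. These hold neither of the motifs marked below, and which ACTC1 promoter gave the reads was not measured. Capitals mark TATAAA, which begins 30 bases before the start in MYH6 at chr14:23408224-23408523 and 31 before in ACTC1 at chr15:34795500-34795799, and a CArG box, the serum response factor motif of muscle genes, which begins 109 bases before the start in ACTC1.
MYH6: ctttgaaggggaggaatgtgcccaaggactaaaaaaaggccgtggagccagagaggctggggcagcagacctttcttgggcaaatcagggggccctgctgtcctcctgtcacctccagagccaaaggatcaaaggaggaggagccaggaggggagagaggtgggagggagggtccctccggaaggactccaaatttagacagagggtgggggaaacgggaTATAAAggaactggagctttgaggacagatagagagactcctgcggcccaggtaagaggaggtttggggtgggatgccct
ACTC1: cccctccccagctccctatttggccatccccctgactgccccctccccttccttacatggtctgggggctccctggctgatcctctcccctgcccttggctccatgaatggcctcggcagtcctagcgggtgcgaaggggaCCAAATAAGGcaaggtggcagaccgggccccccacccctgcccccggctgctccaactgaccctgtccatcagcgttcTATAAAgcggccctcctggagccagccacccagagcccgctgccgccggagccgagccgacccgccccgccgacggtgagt
Motifs of 5 kinds were searched on both strands, and those marked did not overlap. The 33 genes of the list with an entry hold 54 promoters. TATAAA stood in 11.5% of 35116 promoters of this length and in 4 of the 54. The CArG box stood in 1.29% of promoters and in 3 of the 54, which belong to ACTC1 and LDB3. The LDB3 promoters overlap each other and share the same CArG box, which was counted in each. The MEF2 site stood in 2.99% of promoters and in 4 of the 54, and AGATAA, the GATA factor core, in 10.3% and 6. The Sp1 core GGGCGG stood in 45% of promoters and in 23 of the 54. A match is a run of letters and not a measured binding site.

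TPM1, alpha tropomyosin, had 1144 and 722 counts in Control, 735 and 702 in PAX6_Ta KO, and 1147 and 1069 in PBX3_Cl KO. Scaled to library size, both PBX3_Cl KO libraries were above the others. In PAX6_Ta KO against PBX3_Cl KO it was lower, at a log2 fold change of -0.79 ± 0.22 (edgeR adjusted p = 0.035), and the call was lost without either PAX6_Ta KO library (adjusted p = 0.128 and 0.299) and without the first PBX3_Cl KO library (0.0889). With replicate as a block TPM1 also rose in PBX3_Cl KO against Control (0.58 ± 0.16, adjusted p = 0.0479, and 0.155 without the block). The remaining thin filament genes were not called. TPM2, beta tropomyosin, had between 301 and 845 counts, with a direct contrast of 0.80 ± 0.26 (adjusted p = 0.0661, and 0.0219 with the block), and TNNI3, the inhibitory cardiac troponin, had between 213 and 691. TNNT2 and TNNC1, the tropomyosin-binding and calcium-binding cardiac troponins, had between 0 and 9 counts per library and were not tested.

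At the Z-disc, the anchor of the thin filaments, DES stood out in both knockouts. DES, the muscle intermediate filament desmin, had 234 and 177 counts in Control, 993 and 596 in PAX6_Ta KO, and 574 and 326 in PBX3_Cl KO. Every knockout library was above both Control libraries, and the knockouts overlapped once scaled. The log2 fold change was 1.44 ± 0.35 (SE) in PBX3_Cl KO against Control (edgeR adjusted p = 0.0205), which fell to 0.90 and lost its call without the first PBX3_Cl KO library (adjusted p = 0.142). It was 2.11 ± 0.35 in PAX6_Ta KO against Control (adjusted p = 0.00169) and 0.67 ± 0.34 between the knockouts (adjusted p = 0.254).

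The Z-disc genes ACTN2 and LDB3 were called against Control in PAX6_Ta KO. ACTN2, the alpha actinin that crosslinks actin there, had 49 and 61 counts in Control, 98 and 155 in PAX6_Ta KO, and 85 and 110 in PBX3_Cl KO. Control was the lowest group and did not overlap the knockouts. Its change of 1.30 ± 0.38 in PAX6_Ta KO (edgeR adjusted p = 0.0467) lost its call without any 1 of the 4 libraries compared, with adjusted p from 0.0625 to 0.334. In PBX3_Cl KO it was 1.10 ± 0.38 (adjusted p = 0.112), and it was called with replicate as a block (1.11 ± 0.26, adjusted p = 0.0261).

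LDB3, the Z-disc scaffold also called ZASP or Cypher, had 15 and 4 counts in Control, 37 and 40 in PAX6_Ta KO, and 7 and 14 in PBX3_Cl KO. The PAX6_Ta KO libraries were above all others, and Control and PBX3_Cl KO overlapped. Its log2 fold change in PAX6_Ta KO was 2.17 ± 0.60 against Control (edgeR adjusted p = 0.0348), which was 0.256 without the second Control library, 0.112 without the first PAX6_Ta KO library and 0.0919 without the second. TTN, the giant spring titin, was counted from 2046 to 4749 times, and its direct contrast of 0.52 ± 0.25 (adjusted p = 0.22) was called with the replicate block alone (0.51 ± 0.13, adjusted p = 0.0302).

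The membrane genes held the largest difference between the knockouts in the opposite direction. POPDC3 and BVES encode Popeye proteins, cyclic AMP-binding membrane proteins of heart and skeletal muscle, and lie 20.7 kb apart on chromosome 6. POPDC3 had 9 and 7 counts in Control, 41 and 21 in PAX6_Ta KO, and 481 and 307 in PBX3_Cl KO. The groups did not overlap, with PBX3_Cl KO the highest and Control the lowest. On the log2 scale POPDC3 rose by 5.90 ± 0.51 in PBX3_Cl KO against Control (edgeR adjusted p = 1.28e-05) and was lower in PAX6_Ta KO against PBX3_Cl KO, at -3.82 ± 0.43 (adjusted p = 9.89e-05). In PAX6_Ta KO against Control it was 2.09 ± 0.52 (adjusted p = 0.0204), a call that was lost without the first PAX6_Ta KO library (1.44, adjusted p = 0.228).

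BVES, also called POPDC1, was ordered the other way between the knockouts. It had 2 and 2 counts in Control, 91 and 83 in PAX6_Ta KO, and 24 and 20 in PBX3_Cl KO. No groups overlapped, and PAX6_Ta KO was the highest. The log2 fold change was 3.67 ± 0.62 in PBX3_Cl KO against Control (edgeR adjusted p = 0.00227), 5.49 ± 0.58 in PAX6_Ta KO against Control (adjusted p = 5.73e-05) and 1.82 ± 0.43 between the knockouts (adjusted p = 0.0151). The last was not called without either PAX6_Ta KO library (adjusted p = 0.126 and 0.0507) or without the second PBX3_Cl KO library (0.0505). Per length, POPDC3 took 83.2% and 64.3% of the summed RPKM of BVES, POPDC2 and POPDC3 in Control, on few counts. Its share was 97.3% and 94.4% in PBX3_Cl KO and 48.8% and 32.8% in PAX6_Ta KO.

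RefSeq lists a pair of promoters for POPDC3, of which the downstream one at chr6:105176206-105176505 (GRCh38.p14, minus strand) is shown for its TATAAA, in capitals, 29 bases before the start. It holds 4 CpG pairs and the upstream one holds 43, beside a median of 14 over all promoters, and which of them gave the reads was not measured.
POPDC3: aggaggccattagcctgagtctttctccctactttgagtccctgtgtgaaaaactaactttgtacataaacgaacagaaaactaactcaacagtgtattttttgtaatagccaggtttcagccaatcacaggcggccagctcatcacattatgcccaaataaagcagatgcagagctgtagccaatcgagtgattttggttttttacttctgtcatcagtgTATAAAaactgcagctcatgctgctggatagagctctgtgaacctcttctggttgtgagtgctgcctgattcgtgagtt
BVES-AS1, a transcript on the opposite strand that overlaps both genes, had 1 and 2 counts in Control, 4 and 6 in PAX6_Ta KO, and 12 and 15 in PBX3_Cl KO. The libraries were made with a stranded kit, but the sources used here do not give the strand setting of the counting, so reads of overlapping genes on opposite strands may have been shared. The same limit touches ADCY7, which overlaps BRD7, and RYR1, which overlaps MAP4K1.

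DTNA, alpha dystrobrevin, a partner of dystrophin under the muscle membrane, had 103 and 71 counts in Control, 809 and 671 in PAX6_Ta KO, and 244 and 147 in PBX3_Cl KO. The groups did not overlap, and PAX6_Ta KO was the highest. Its log2 fold change was 1.48 ± 0.33 (SE) in PBX3_Cl KO against Control (edgeR adjusted p = 0.0127, and 0.07 without the first PBX3_Cl KO library), 3.24 ± 0.34 in PAX6_Ta KO against Control (adjusted p = 4.98e-05) and 1.76 ± 0.32 between the knockouts (adjusted p = 0.00292). SGCD, delta sarcoglycan, had 1 count in all 6 libraries together.

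In the sarcoplasmic reticulum, the ryanodine receptors RYR1 and RYR2 and their partner TRDN were called. RYR1, the release channel of skeletal muscle, had 5940 and 7898 counts in Control, 3516 and 4161 in PAX6_Ta KO, and 2228 and 2507 in PBX3_Cl KO. The groups did not overlap, with Control the highest. RYR1 fell in PBX3_Cl KO against Control, at -1.28 ± 0.23 on the log2 scale (edgeR adjusted p = 0.00329), the only call in that direction. In PAX6_Ta KO against Control it was -0.75 ± 0.23 (adjusted p = 0.0531), and -0.72 ± 0.17 with replicate as a block, which passed (adjusted p = 0.0212).

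RYR2, the release channel of heart muscle, had 21 and 1 counts in Control, 233 and 275 in PAX6_Ta KO, and 28 and 30 in PBX3_Cl KO. PAX6_Ta KO was the highest by far, and the Control libraries differed widely from each other. RYR2 in PAX6_Ta KO lay above PBX3_Cl KO by 2.96 ± 0.59 (edgeR adjusted p = 0.00532) and above Control by 4.69 ± 0.66 (adjusted p = 4.88e-04), and in the first of these DESeq2 gave an adjusted p of 0.0768. The value of RYR2 in PAX6_Ta KO against Control was 7.81 without the first Control library and 3.83 without the second. In PBX3_Cl KO against Control RYR2 was 1.73 ± 0.67 (edgeR adjusted p = 0.156), and was called with no low-count filter (1.71 ± 0.49, adjusted p = 0.00916). Without the first Control library that value became 4.86. RYR1 still held between 93.9% and 99.8% of the summed RPKM of RYR1, RYR2 and RYR3 in every library.

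TRDN, triadin, which ties the ryanodine receptor to its store of calcium-binding protein, had its highest counts in PBX3_Cl KO. It had 0 and 2 counts in Control, 15 and 10 in PAX6_Ta KO, and 78 and 61 in PBX3_Cl KO. The groups did not overlap. The ratio of PBX3_Cl KO to Control was 85.5, with an exact 95% counting interval of 23.2 to 713 (edgeR adjusted p = 2.60e-04), and that of PAX6_Ta KO to Control was 13.7, with an interval of 3.42 to 120 (adjusted p = 0.0206). The latter call was lost without the first Control library (adjusted p = 0.135) or the first PAX6_Ta KO library (adjusted p = 0.0798). PAX6_Ta KO was below PBX3_Cl KO, at -2.62 ± 0.56 in log2 units (adjusted p = 0.00825, and 0.0609 without the second PAX6_Ta KO library).

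The TRDN promoter at chr6:123636901-123637200 (RefSeq, GRCh38.p14, minus strand) is shown because this gene, like POPDC3, was highest in PBX3_Cl KO. It holds 0 CpG pairs and none of the motifs searched, and so has no capitals.
TRDN: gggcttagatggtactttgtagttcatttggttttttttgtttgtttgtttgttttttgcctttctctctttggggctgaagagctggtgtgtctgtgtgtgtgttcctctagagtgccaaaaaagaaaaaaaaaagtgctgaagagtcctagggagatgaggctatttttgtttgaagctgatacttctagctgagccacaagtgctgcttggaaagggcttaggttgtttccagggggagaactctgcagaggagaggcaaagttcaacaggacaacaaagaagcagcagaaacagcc
The rest of this group was not called. ATP2A2, the pump named above, had between 19865 and 24856 counts, with log2 fold changes of 0.17 ± 0.22, -0.11 ± 0.22 and 0.06 ± 0.22 in PBX3_Cl KO against Control, PAX6_Ta KO against PBX3_Cl KO and PAX6_Ta KO against Control. PLN, phospholamban, the brake of that pump, had between 14 and 33 counts. CASQ2, the calcium-binding calsequestrin of heart, and SLC8A1, the sodium-calcium exchanger, had between 0 and 2 counts per library.

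Of the voltage-gated calcium channels, the T-type pore subunits CACNA1H and CACNA1I were called. CACNA1I had 2 and 7 counts in Control, 52 and 51 in PAX6_Ta KO, and 47 and 41 in PBX3_Cl KO. Both knockouts were above Control without overlap. Its log2 fold change was 3.53 ± 0.61 in PBX3_Cl KO (edgeR adjusted p = 0.00248) and 3.59 ± 0.60 in PAX6_Ta KO (adjusted p = 0.00178), each against Control, and 0.06 ± 0.47 between the knockouts (adjusted p = 0.96).

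CACNA1H had 10 and 4 counts in Control, 142 and 68 in PAX6_Ta KO, and 19 and 13 in PBX3_Cl KO. PAX6_Ta KO was above both other groups. The log2 fold change between the knockouts was 2.56 ± 0.54 (edgeR adjusted p = 0.00789, and 0.109 without the first PAX6_Ta KO library), that in PAX6_Ta KO against Control was 4.06 ± 0.60 (adjusted p = 7.19e-04), and that in PBX3_Cl KO against Control was 1.49 ± 0.64 (adjusted p = 0.214). CACNA1H took 56.4% and 35.9% of the summed RPKM of 10 pore subunits in PAX6_Ta KO, and 9.2% and 8.02% in Control.

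The L-type pore subunits of the heartbeat, CACNA1C and CACNA1D, had between 0 and 4 counts per library. CACNG8, a gamma subunit, had 0 and 0 counts in Control, 6 and 9 in PAX6_Ta KO, and 2 and 3 in PBX3_Cl KO. The beta subunits, which bring the pore to the membrane, were counted more often and were not called, with 374 to 684 counts for CACNB1, 87 to 187 for CACNB2 and 158 to 371 for CACNB3. With the replicate block alone CACNB1 was called lower in PAX6_Ta KO against PBX3_Cl KO (-0.61 ± 0.18, adjusted p = 0.0474, and 0.181 without the block).

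In the adrenergic and second-messenger group, ADRB1, PLCB4, CAMK2A, ADCY7 and ADCY9 were called. ADRB1, the main beta-adrenergic receptor of the heart, had 0 and 0 counts in Control, 28 and 16 in PAX6_Ta KO, and 0 and 3 in PBX3_Cl KO. PAX6_Ta KO was the highest group. Its level there was at least 16.1-fold higher than in Control, taking the floor of 3 counts (edgeR adjusted p = 0.00498), and 13.1 times that in PBX3_Cl KO, with an exact 95% counting interval of 4.2 to 65.9 (adjusted p = 0.0278). The latter call was lost with DESeq2 (adjusted p = 0.0647), without the first PAX6_Ta KO library (0.177) and without the first PBX3_Cl KO library (0.107).

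PLCB4, a phospholipase C beta that makes the messengers releasing stored calcium, had 1 and 0 counts in Control, 32 and 25 in PAX6_Ta KO, and 1 and 2 in PBX3_Cl KO. Only PAX6_Ta KO held more than 2 counts in any library. The ratio of PAX6_Ta KO to PBX3_Cl KO was 17, with an exact 95% counting interval of 5.52 to 84.7 (edgeR adjusted p = 0.00496), and that to Control was 62.6, from 10.8 to 2510 (adjusted p = 0.00131).

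CAMK2A, a calcium and calmodulin-dependent kinase best known from neurons, had 13 and 1 counts in Control, 70 and 39 in PAX6_Ta KO, and 34 and 64 in PBX3_Cl KO. Both knockouts were above Control and overlapped each other. The log2 fold change was 3.11 ± 0.72 in PBX3_Cl KO (edgeR adjusted p = 0.017, and 0.0907 without its second library) and 3.13 ± 0.72 in PAX6_Ta KO (adjusted p = 0.0137), each against Control, and 0.01 ± 0.60 between them. Without the first Control library the CAMK2A values against Control were 5.61 in PBX3_Cl KO and 5.62 in PAX6_Ta KO, and without the second they were 2.31 and 2.32. CAMK2D, the main form in heart, had 1 and 2 counts in Control, 15 and 10 in PAX6_Ta KO, and 1 and 0 in PBX3_Cl KO, too few for the filter. The ratio of PAX6_Ta KO to PBX3_Cl KO was 22.3, with a counting interval of 3.65 to 916. With no filter on low counts CAMK2D was called in that contrast (edgeR adjusted p = 0.0115) and against Control (0.0372), and fits that left out a library or held only the groups compared called it in 1 or the other.

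ADCY7, an adenylyl cyclase abundant in blood cells, had 5392 and 4373 counts in Control, 3243 and 3596 in PAX6_Ta KO, and 5435 and 7544 in PBX3_Cl KO. Scaled to library size, PBX3_Cl KO was the highest group and PAX6_Ta KO the lowest. ADCY7 was lower in PAX6_Ta KO against PBX3_Cl KO, at -1.08 ± 0.20 (edgeR adjusted p = 0.00353), a call kept in all 14 alternatives. Its rise of 0.71 ± 0.20 in PBX3_Cl KO against Control (adjusted p = 0.0454) lost its call in 10 of the 14, among them the fit with the median of its chromosome arm taken out (0.57, adjusted p = 0.121) and those without any 1 of 5 libraries.

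ADCY9 had 177 and 193 counts in Control, 413 and 408 in PAX6_Ta KO, and 234 and 288 in PBX3_Cl KO. The 3 groups did not overlap once scaled. ADCY9 was 1.27 ± 0.28 higher in PAX6_Ta KO than in Control (edgeR adjusted p = 0.0104), and the call was lost without the first Control library (adjusted p = 0.098) or the first PAX6_Ta KO library (adjusted p = 0.0918). In PBX3_Cl KO against Control it was 0.78 ± 0.28 (adjusted p = 0.123). ADCY2 had 0 and 0 counts in Control, 15 and 7 in PAX6_Ta KO, and 1 and 7 in PBX3_Cl KO, at least 8.05-fold higher in PAX6_Ta KO than in Control. It did not pass the filter on low counts, and against Control it was called by DESeq2 (adjusted p = 0.0266), with no filter (edgeR adjusted p = 0.0011) and in 4 fits that left out a library.

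The other cyclases were not called in the main fit. ADCY1 had between 1 and 29 counts. In PBX3_Cl KO against Control it was 2.12 ± 0.81 (edgeR adjusted p = 0.149), and was called with no low-count filter (2.10 ± 0.66, adjusted p = 0.0259). Without the second Control library ADCY1 was at 4.57 in PBX3_Cl KO and 3.86 in PAX6_Ta KO, each against Control. ADCY6, one of the main cyclases of heart, had between 42 and 307 counts, its highest value being the first Control library. In PBX3_Cl KO against Control it was -1.56 ± 0.65 (adjusted p = 0.193), and was called lower with no low-count filter (-1.58 ± 0.40, adjusted p = 0.00168). Without the second Control library the value of ADCY6 there was -2.34. Between the knockouts its log2 fold change of 1.45 ± 0.65 (adjusted p = 0.193) was called in 4 alternatives, with no filter, only the groups compared, or either Control library left out (adjusted p from 0.00383 to 0.0245). Per length ADCY7 and ADCY3 made up nearly the whole cyclase signal. ADCY7 held 46% and 44.9% of the summed RPKM of 9 cyclases in Control, 44.4% and 47.7% in PAX6_Ta KO, and 50.9% and 55.3% in PBX3_Cl KO.

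Some called genes had neighbours that moved alike, which was seen after the values were known. MYH6 and MYH7 lie 4.47 kb apart on chromosome 14. Downstream of them on the same strand, EFS, a docking protein of Src kinases, had 9 and 9 counts in Control, 1039 and 1033 in PAX6_Ta KO, and 1 and 2 in PBX3_Cl KO. SLC22A17, the lipocalin receptor, had 17 and 6, 148 and 127, and 2 and 7 in the same order. Both were highest in PAX6_Ta KO (edgeR adjusted p of 2.30e-07 for EFS and 6.40e-04 for SLC22A17 against Control, and 1.17e-07 and 2.49e-04 against PBX3_Cl KO), 16.2 and 29.1 kb from MYH6. CMTM5, between MYH6 and EFS on the opposite strand, had 71 and 4, 15 and 3, and 0 and 0. NGDN on one side and PABPN1 on the other, 61.4 and 55.8 kb away, were not called in any comparison.

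Beside ACTC1, at 35.1 kb, GJD2, the gap junction protein connexin 36, had 1 and 4 counts in Control, 94 and 57 in PAX6_Ta KO, and 3 and 1 in PBX3_Cl KO. It was highest in PAX6_Ta KO, as ACTC1 was, with log2 fold changes of 4.98 against Control and 5.01 against PBX3_Cl KO (edgeR adjusted p = 5.57e-04 and 6.91e-04). AQR, 56.2 kb from ACTC1, was not called. Around POPDC3 and BVES, LIN28B and PREP were not called either. RASGRP4, 7.39 kb from RYR1, was lower in PBX3_Cl KO against Control, as RYR1 was (-1.89, edgeR adjusted p = 0.0017). SPEG, 8.11 kb from DES, was higher against Control in PBX3_Cl KO (0.79, adjusted p = 0.0467) and PAX6_Ta KO (1.20, adjusted p = 0.00379), as DES was. EDARADD, 161 kb from ACTN2, was higher in both as well (5.94 and 2.58). PLCB1, 99.5 kb from PLCB4, moved opposite to it in PAX6_Ta KO against Control (-1.69, adjusted p = 0.00438). Neighbours within 200 kb were taken only for the 20 genes called in 1 or more comparisons, so their choice rests on these values. Of 130 such tested neighbours outside the list, 10 were higher and 1 lower in PAX6_Ta KO against Control (7.69% and 0.769%, beside 7.21% and 4.21% of all tested genes). In PBX3_Cl KO against Control 6 were higher and 3 lower (4.62% and 2.31%, beside 6.28% and 2.69%), and in PAX6_Ta KO against PBX3_Cl KO 10 were higher and 6 lower (7.69% and 4.62%, beside 5.26% and 6.71%). Medians of the chromosome arms that held the 20 called genes lay between -0.17 and 0.31 in the 3 comparisons.

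Other genes of the same pathways numbered 97 in the table outside the 44, and 60 of them were tested. In PBX3_Cl KO against Control 2 were higher and 7 lower, beside 6.28% and 2.69% of all tested genes, and their median log2 fold change was 0.10. In PAX6_Ta KO against PBX3_Cl KO 8 were higher and 6 lower, beside 5.26% and 6.71%, with a median of -0.03, and in PAX6_Ta KO against Control 6 were higher and 7 lower, beside 7.21% and 4.21%, with a median of 0.09. Among the lower genes in PBX3_Cl KO against Control were PLCB2, a phospholipase C of blood cells (-3.84), UTRN, the dystrophin relative utrophin (-3.37), ADCY4 (-2.16) and MYL4, the atrial light chain (-1.25), and the 2 higher genes were PDE4D, a cyclic AMP phosphodiesterase (2.12), and TPM3 (1.05).

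Between the knockouts, PLCB2 (2.52), the pump genes ATP2A3 (1.78) and ATP2B4 (1.76) and ADRA1D (1.68) were higher in PAX6_Ta KO, and PLCB1 was lower (-1.80). ATP2A3, the SERCA pump of blood cells, had 7150 and 4093 counts in Control, 19062 and 13697 in PAX6_Ta KO, and 5014 and 3537 in PBX3_Cl KO. Against Control, changes in PAX6_Ta KO included UTRN (-2.76), ADRA1D (1.79), ATP2A3 (1.71), NEBL (-1.69) and PLCB1 (-1.69).

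Markers of muscle cells were checked in the same libraries. Of 8 cardiomyocyte markers, TBX5 and MYOCD had 0 counts in all libraries, NKX2-5 had between 0 and 3 and GATA4 between 1 and 10. TBX20 and NPPB had between 0 and 2. HAND2 had between 189 and 388 counts and NPPA between 14 and 64, and neither was called in any comparison. The summed level of the 8 markers was mostly HAND2. It was 7.71 and 8.32 CPM in Control, 7.39 and 6.1 in PAX6_Ta KO, and 6.15 and 5 in PBX3_Cl KO. Of 9 skeletal muscle markers, MYOD1, MYOG, MYF5 and MYF6 had 0 counts in all libraries, and MYH1 was higher in PBX3_Cl KO (1 and 2 counts in Control, 15 and 10 in PBX3_Cl KO, edgeR adjusted p = 0.0269). The better counted CKM and MYH3 went the other way there without a call (log2 fold changes -2.14 and -0.97, adjusted p = 0.054 and 0.168). Summed skeletal muscle markers were 2.47 and 1.96 CPM in Control, 1.21 and 1.42 in PAX6_Ta KO, and 1.34 and 1.38 in PBX3_Cl KO. Summed smooth muscle markers ranged from 58.8 to 72.5 CPM in Control and PAX6_Ta KO and were 32.8 and 70.5 in PBX3_Cl KO. Of these, CNN1 had 929 and 799 counts in Control, 592 and 518 in PAX6_Ta KO, and 42 and 38 in PBX3_Cl KO. Its log2 fold change in PBX3_Cl KO against Control was -4.13 (edgeR adjusted p = 2.46e-06). ACTA2 had 0 and 1 counts in Control and 9 and 13 in PBX3_Cl KO, and MYH11, TAGLN, LMOD1 and SMTN were not called in that comparison. Summed fibroblast markers were 49.9 and 134 in Control, 23.9 and 24.1 in PAX6_Ta KO, and 3.52 and 4.02 in PBX3_Cl KO. The fibroblast sum was mostly COL1A2, with 2922 and 6703 counts in Control and 61 and 78 in PBX3_Cl KO, while COL3A1 rose in PBX3_Cl KO (log2 fold change 2.91, edgeR adjusted p = 0.00486) and COL1A1 in PAX6_Ta KO (4.96, adjusted p = 4.89e-05), each against Control. Erythroid markers, which K562 should carry, ranged from 5690 to 10600, neuronal markers from 0.34 to 1.35, and megakaryocyte markers were 58.9 and 19.4 in Control and between 5.17 and 12.2 in the knockouts. Whether the changes in these lists had a part in those of the 44 genes was not tested, and in bulk RNA a change in the number of cells that express a gene cannot be told apart from a change in RNA per cell.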

How the data were processed

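Total RNA of 6 K562 libraries was sequenced. Per the labels and methods, the authors ran Cutadapt (version 3.4) and then STAR against GRCh37, and the raw counts per gene that they deposited were used here. The table holds 4 further columns of single samples, which were not used, and the deposited comparison tables hold log2 fold changes and p-values of the authors, which were not used either. Members and gene lists were chosen with earlier results of these data known.

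Counts were fitted with edgeR (version 4.0.16) under R 4.3.3, using filterByExpr, TMM and 1 quasi-likelihood fit of all 6 libraries, with Benjamini-Hochberg adjustment over 20746 genes. The procedure was tested on simulated data. RPKM used exon lengths of GENCODE on GRCh37. A group at 0 counts was set to a floor of 3, and 1 to 3 counts were given as a ratio with an exact 95% interval, both for counting error only.

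Library counts are given for every gene of the 44 called in 1 or more comparisons or with under 3 counts in a group and 20 or more in another. CACNG8, MYH7B and genes outside the list are exceptions chosen for their values, apart from at most 6 other pathway genes per comparison with the largest change, of which 1 is not reported here.

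Libraries with the same replicate number deviated together (correlations across genes of 0.389, 0.21 and 0.379 for the 3 pairs of groups). The labels do not say what the numbers mark, and the main fit held no replicate block. A fit with the block was therefore run as an alternative, and its values stand beside calls that it changed. Replicates differed by more than sampling noise (chi-square per degree of freedom of 42 to 126). Alternatives were DESeq2 (version 1.42.0), other scaling factors, other filters, only the groups compared, arm medians taken out, and each library left out.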

Additional observations from a re-analysis of the deposited data

How the results depend on the processing

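No fold change of a called gene reversed under the 14 alternatives. Of the called genes, 5 of 9 in PBX3_Cl KO against Control, 7 of 13 in PAX6_Ta KO against PBX3_Cl KO and 12 of 17 in PAX6_Ta KO against Control kept their call in every alternative that tested them. MYH7, ADRB1 and PLCB4, counted as kept in PAX6_Ta KO against Control, were tested in only 13 of the 14. The same holds for MYH7 and PLCB4 in PAX6_Ta KO against PBX3_Cl KO. The number lower in PAX6_Ta KO against Control was 0, and 1 (RYR1) with the arm median taken out, no low-count filter, only the 2 groups or the replicate block, and 0 to 1 with a library left out. The number lower in PBX3_Cl KO against Control was 1, and 3 with no low-count filter, and 1 to 3 with a library left out. The number lower in PAX6_Ta KO against PBX3_Cl KO was 4, and 2 to 4 with a library left out (2 without the second PAX6_Ta KO library). Other pathway genes called numbered 14 in PAX6_Ta KO against PBX3_Cl KO, and 9 to 18 with a library left out (9 without the first PAX6_Ta KO library), and 9 in PBX3_Cl KO against Control, and 4 to 10 (4 without the first Control library). The causes were not tested.

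With the replicate number as a block, members called were 10 higher and 1 lower in PBX3_Cl KO against Control, 11 higher and 5 lower between the knockouts, and 17 higher and 1 lower in PAX6_Ta KO against Control. The block lost no call. Depth limited the genes with few counts: the alternatives called CACNG8, ADCY2 and CAMK2D in some comparisons, and the main filter on low counts left them out.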
